A study of Mus musculus with 8 samples.

Results

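Genes listed for the joint surface were followed in cultured chondrocytes, the resident cells of cartilage, after delivery of a microRNA. They were Prg4, Tnc, Cilp, Cilp2, Erg and Creb5, grouped as superficial zone genes by the list that named them. This fixed list of 6 was taken by gene symbol among the 24067 genes of the deposited expression table, and all 6 were present in it. The rule used the symbols alone, and the list was proposed with earlier results of these data in view. The cells were primary articular chondrocytes from knee cartilage (ends of the femur and tibia) of ICR mice, an outbred strain, aged 5 days, with no separation by cartilage zone named in the labels. The miR-204 group was transfected with a miR-204 mimic and the miR-Ctrl group with a control small RNA, each at 50 nM for 24 h, and cells were taken 24 h after the end of transfection. Both groups were kept in medium with serum at low oxygen. Each group had 4 libraries, numbered replicates 1 to 4. Whether the replicates are separate cultures or separate mice is not stated in the labels. The spread that the p-values rest on may therefore be technical.

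The superficial zone is the thin outer layer of articular cartilage that faces the joint cavity. Its flattened cells secrete lubricin, the product of Prg4, which coats the surface and lowers friction, and they differ from the rounder cells beneath, which make most of the aggrecan and collagen II of the tissue. Beside Prg4 the list holds genes of matrix glycoproteins, tenascin-C and the cartilage intermediate layer proteins, the latter named after the intermediate layer. It also holds the transcription factor genes Erg and Creb5, the first known to keep articular cells from turning into hypertrophic ones. A microRNA acts on such genes when bases 2 to 8 at its 5′ end, the seed, pair with the 3′ UTR of their transcripts.

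The mature microRNA and the matches to its seed in the 6 transcripts are shown first, because the pairing runs through the seed. Searched words were the 8mer AAAGGGAA, the 7mer-m8 AAAGGGA, the 7mer-A1 AAGGGAA and the 6mer AAGGGA, on the sense strand, with each place counted once under its longest word. The mature sequence is from RefSeq (GRCm38.p6, chr19:22750610-22750631, + strand) with the seed in capitals. The sites are from GENCODE transcripts on mm10, with the matching letters in capitals. Of the 6 genes, Creb5 and Erg held a match in the 3′ UTR.
miR-204-5p: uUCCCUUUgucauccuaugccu
Creb5 site 1, 7mer-m8, chr6:53694254-53694275, +: agttatataagaaaAAAGGGAg
Creb5 site 2, 7mer-m8, chr6:53695006-53695027, +: tggggacactagggAAAGGGAc
Creb5 site 3, 8mer, chr6:53696040-53696061, +: gaaaagaaaaatgaAAAGGGAA
Creb5 site 4, 8mer, chr6:53698363-53698384, +: ttgtatcagaagcaAAAGGGAA
Erg only site, 7mer-A1, chr16:95360379-95360400, -: gtatgatgtcatttgAAGGGAA

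Creb5 (gene ID 231991, chr6:53287270-53700376, + strand) held 4 matches in a 3′ UTR of 6289 nucleotides, at positions 181, 933, 1967 and 4290 after the stop codon. All 4 lie in exon 11, the last one. Among shorter annotated 3′ UTRs of Creb5, those of 731 nucleotides held the match at position 181 alone. That of 6280 nucleotides held all 4. Erg (gene ID 13876, chr16:95359169-95586593, - strand) held 1 match at position 421 of 1637 nucleotides, in its last exon. Prg4 (96875, chr1:150449412-150466165, - strand), Cilp (214425, chr9:65265180-65280605, + strand), Cilp2 (68709, chr8:69880369-69887687, - strand) and Tnc (21923, chr4:63959785-64047015, - strand) held none of the 4 words in 3′ UTRs of 572, 228, 489 and 648 nucleotides. These letters occur in part by length. A 7mer or 8mer stood in 67.3% of the 352 3′ UTRs within 20% of the length of Creb5 and in 24.2% of the 1776 near the length of Erg. The share was between 3.73% and 12.6% near the lengths of the other 4 genes, and 24.0% over all 11212 tested genes with a 3′ UTR.

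**Figure D1:**
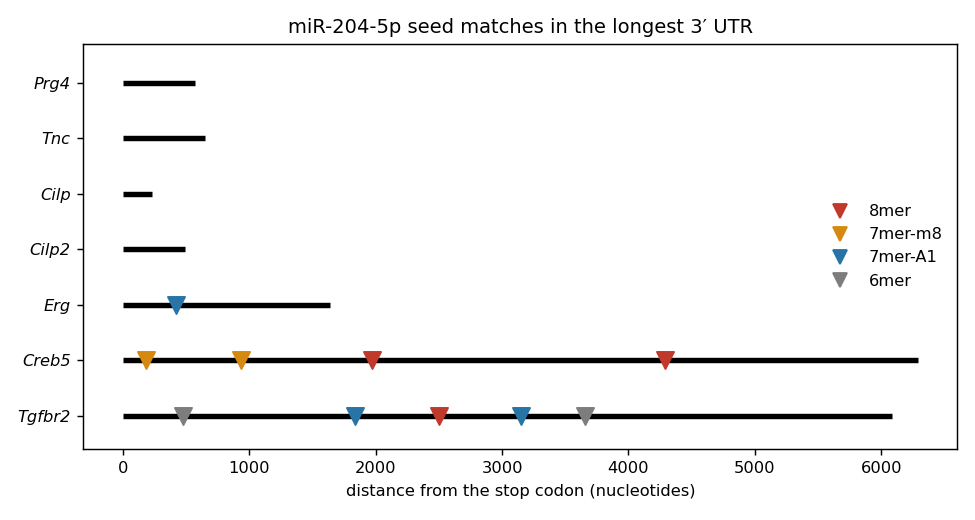
Place of miR-204-5p seed matches (triangles, coloured by type) along the longest annotated 3′ UTR of each of the 6 genes and of Tgfbr2 (black lines), as distance from the stop codon in nucleotides. Creb5 has 4 matches and Erg 1, while the 3′ UTRs of Prg4, Tnc, Cilp and Cilp2 are short and have none.

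The values are FPKM, fragments scaled to transcript length and to all mapped fragments, so levels can be compared between genes. Their sum over all genes lay between 416560 and 490818 in a library. Depth relative to miR-Ctrl replicate 1 was 0.798 in miR-204 replicate 2 and 0.772 in miR-Ctrl replicate 2, and between 0.929 and 0.962 in the other 5. Both replicate 2 libraries stood apart from the other 6 on the first principal component, which held 58.4% of the variance. Chondrocyte markers were abundant throughout, with a summed level of 10 genes of 12346 to 31648 FPKM with miR-204 and 12295 to 39861 FPKM with miR-Ctrl, lowest in both replicate 2 libraries. Fibroblast markers (8 genes) summed to between 1564 and 3562 FPKM with miR-204 and between 1614 and 3392 with miR-Ctrl. Tendon markers (5 genes) summed to between 935 and 1463 FPKM with miR-204 and between 922 and 1302 with miR-Ctrl. Fmod made most of this sum, with a mean of 1039 FPKM over the 8 libraries. Scx averaged 22.3, Tnmd 11.6, Thbs4 4.26 and Mkx 3.41 FPKM. Macrophage markers (7 genes) summed to between 10.2 and 22.3 FPKM with miR-204 and between 4.22 and 22.1 with miR-Ctrl. The part of these cells in the levels below was not tested, and fewer cells of a type and less RNA per cell cannot be told apart.

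No member of the group passed the test between miR-204 and miR-Ctrl. Prg4, Tnc, Cilp2 and Erg reached the mean of 1 FPKM needed for testing, and 0 of these 4 were called by limma without the replicate number (0 also at an unadjusted p under 0.05). Of all 11612 tested genes 0.207% were called in that fit, 0.0258% higher and 0.181% lower. With the replicate number as a block, which compares libraries of equal number, Cilp2 rose and the other 3 were not called, where 15.2% of all genes were called in either direction and 12.4% were called higher. With libraries also centred on their medians, 0 of the 4 were called, against 9.31% of all genes (4.99% higher and 4.32% lower). Cilp and Creb5 lay under 1 FPKM and were read from a fit of all 18849 genes with any signal, in which neither was called with or without the block, beside 3.92% and 0.0477% of genes. In none of the 6 did the 2 groups stand clear of each other, as they did in 5.9% of tested genes (4.32% with miR-204 higher and 1.58% with miR-204 lower).

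Prg4 encodes lubricin, the surface lubricant itself. It measured 29.0, 25.2, 17.1 and 16.6 FPKM in miR-204 replicates 1 to 4, against 23.7, 33.8, 7.64 and 19.7 FPKM in miR-Ctrl replicates 1 to 4. The miR-204 values lay inside the range of the miR-Ctrl values, whose lowest and highest libraries, replicates 3 and 2, were also the lowest and highest of all 8. Means were 21.98 ± 6.107 FPKM with miR-204 and 21.22 ± 10.82 FPKM with miR-Ctrl (SD, n = 4 each). The log2 fold change of Prg4, on the log2(FPKM + 1) scale used for all fold changes here, was 0.18 ± 0.41 (SE, 95% interval -0.76 to 1.11), with an adjusted p of 0.953 by limma and an exact two-sided permutation p of 0.771. Prg4 was higher with miR-204 in pairs 1 and 3 (1.22 and 2.24 times) and lower in pairs 2 and 4 (0.745 and 0.841 times). The interval with the block, -0.38 to 0.73, also spans 0. Without miR-Ctrl replicate 3 the log2 fold change was -0.22, so its sign rested on that library.

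Tnc encodes tenascin-C, a large matrix glycoprotein of the joint surface and perichondrium that is known to increase in injured cartilage. It had the highest level of the 6 genes, with 42.5, 30.6, 33.2 and 38.0 FPKM in miR-204 replicates 1 to 4, against 43.1, 29.1, 37.0 and 34.1 FPKM in miR-Ctrl replicates 1 to 4. Replicate 1 was the highest and replicate 2 the lowest in both groups, and the ranges nearly coincided. Means were 36.1 ± 5.28 FPKM with miR-204 and 35.8 ± 5.84 FPKM with miR-Ctrl (SD, n = 4 each). The log2 fold change of Tnc was 0.012 ± 0.14 (SE, 95% interval -0.31 to 0.33, limma adjusted p = 0.994, exact permutation p = 0.914). With the block the interval narrowed to -0.12 to 0.14, the narrowest of the 4 tested genes.

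Cilp encodes cartilage intermediate layer protein 1, a secreted matrix protein known to bind TGF-beta 1. It was the lowest of the 6, with 0.519, 0.335, 0.596 and 0.795 FPKM in miR-204 replicates 1 to 4, against 0.455, 0.322, 0.356 and 0.534 FPKM in miR-Ctrl replicates 1 to 4. The miR-204 library was the higher one in each of the 4 pairs, by 1.14, 1.04, 1.68 and 1.49 times, although the groups overlapped. Means were 0.561 ± 0.191 FPKM with miR-204 and 0.417 ± 0.0964 FPKM with miR-Ctrl (SD, n = 4 each). The log2 fold change of Cilp was 0.13 ± 0.092 (SE, 95% interval -0.079 to 0.35, limma adjusted p = 0.821, exact permutation p = 0.257). With the block the interval was 0.010 to 0.26 and the adjusted p was 0.169, so Cilp did not pass. At this level the added pseudocount of 1 compresses the fold, and the lower depth of the replicate 2 libraries makes those values less precise.

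Cilp2 encodes the paralogue of Cilp, also a secreted cartilage matrix protein. It measured 6.999, 2.35, 6.22 and 8.62 FPKM in miR-204 replicates 1 to 4, against 5.57, 1.42, 6.04 and 5.81 FPKM in miR-Ctrl replicates 1 to 4. Both replicate 2 libraries lay far under the other 6, and within each of the 4 pairs the miR-204 library was the higher one, by 1.26, 1.66, 1.03 and 1.48 times. Means were 6.05 ± 2.66 FPKM with miR-204 and 4.709 ± 2.204 FPKM with miR-Ctrl (SD, n = 4 each). The log2 fold change of Cilp2 was 0.32 ± 0.43 (SE, 95% interval -0.68 to 1.32, limma adjusted p = 0.885, exact permutation p = 0.457). With the block its SE shrank to 0.082 and its adjusted p to 0.0471, which is the one call among the members. That call ended once libraries were centred on their medians (log2 fold change 0.26, adjusted p = 0.120), with the quantile normalization (0.130), with a pseudocount of 0.1 (0.0506), and without replicate 1, 2 or 4 (0.148, 0.0691 and 0.194), and stood without replicate 3 (0.0421). A difference in one direction in all 4 pairs, as in Cilp and Cilp2, was seen in 41.3% of all tested genes and upward in 33.9%.

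Erg encodes an ETS transcription factor known to mark developing articular cartilage and to hold back hypertrophy. It measured 5.01, 4.22, 7.44 and 5.78 FPKM in miR-204 replicates 1 to 4, against 5.42, 2.56, 9.99 and 5.06 FPKM in miR-Ctrl replicates 1 to 4. The miR-204 libraries again lay within the miR-Ctrl range, and in both groups replicate 3 was the highest and replicate 2 the lowest. Means were 5.61 ± 1.38 FPKM with miR-204 and 5.76 ± 3.09 FPKM with miR-Ctrl (SD, n = 4 each). The log2 fold change of Erg was 0.059 ± 0.32 (SE, 95% interval -0.67 to 0.79, limma adjusted p = 0.985, exact permutation p = 0.886), and -0.0050 with centred libraries. Erg is also a factor of endothelial cells. Their 7 markers summed to at most 0.484 FPKM in any miR-204 library and 0.433 FPKM in any miR-Ctrl library. The part of such cells in the level of Erg was not tested.

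Creb5 encodes a CREB/ATF transcription factor known from bovine articular chondrocytes to be needed for Prg4 expression. It measured 0.708, 1.14, 0.765 and 1.13 FPKM in miR-204 replicates 1 to 4, against 0.781, 1.08, 0.762 and 1.21 FPKM in miR-Ctrl replicates 1 to 4. Replicates 2 and 4 were high and replicates 1 and 3 low in both groups, and the pairs differed by 0.906, 1.06, 1.00 and 0.939 times. Means were 0.938 ± 0.234 FPKM with miR-204 and 0.958 ± 0.222 FPKM with miR-Ctrl (SD, n = 4 each). The log2 fold change of Creb5 was -0.016 ± 0.11 (SE, 95% interval -0.28 to 0.24, limma adjusted p = 0.999, exact permutation p = 0.714). With the block the interval was -0.10 to 0.071, on a scale that compresses a gene of this level. Among the 64 tested genes with at least 2 8mers the median log2 fold change was -0.084 (quartiles -0.23 and 0.059, range -1.04 to 0.27), with 39 below and 25 above that of Creb5. With the block 18 of the 64 were called lower (28.1%, against 2.83% of all tested genes) and 1 higher (against 12.4% of all), and the median of all tested genes was 0.064. Creb5, with the sites shown above, had too low a level to be among those 64.

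**Figure D2:**
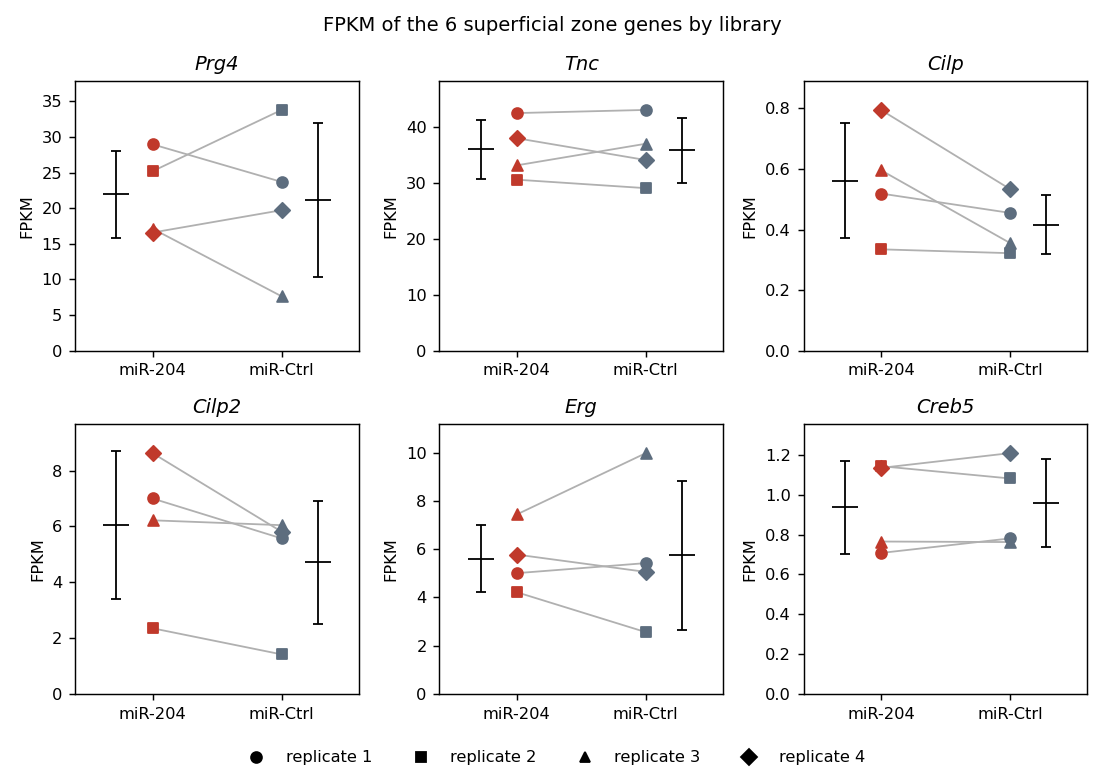
FPKM of the 6 genes in each library (miR-204 left, miR-Ctrl right), with one marker shape per replicate number, grey lines joining libraries of equal number, and black bars for the mean and SD of 4 libraries. The groups overlap in every panel. The lines of Cilp and Cilp2 all slope one way, and both replicate 2 libraries lie low for Cilp2.

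**Figure D3:**
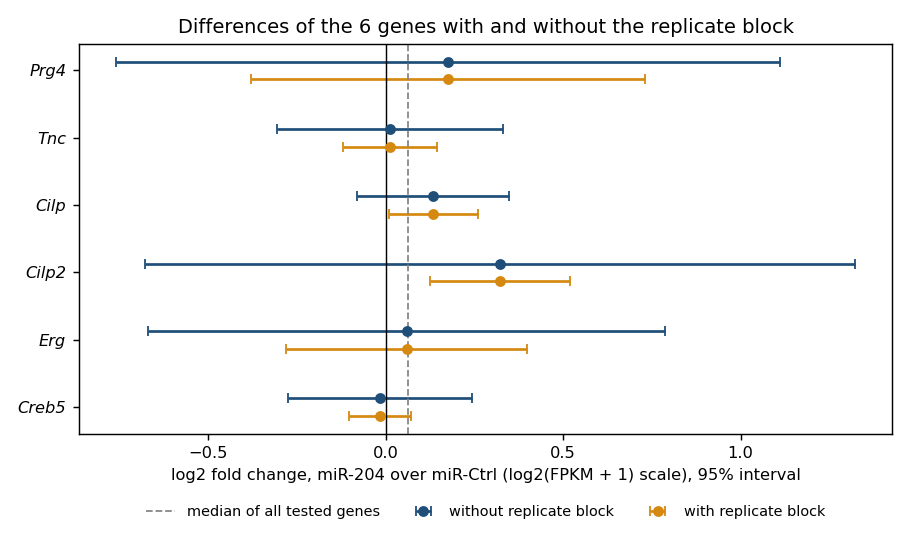
Log2 fold change of each gene, miR-204 over miR-Ctrl, with its 95% interval without and with the replicate block, beside the median of all tested genes (dashed, 0.064). Without the block each interval spans 0, and with it those of Cilp2 and Cilp do not, of which Cilp2 passed adjustment over all genes and Cilp did not.

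By level the genes followed the order Tnc, Prg4, Erg, Cilp2, Creb5, Cilp, from 35.9 FPKM for Tnc to 0.489 FPKM for Cilp over the 8 libraries. Tnc lay above Prg4 in 7 of 8 libraries, the exception being miR-Ctrl replicate 2, and Prg4 above Erg in 7 of 8, the exception being miR-Ctrl replicate 3. Erg and Cilp2 could not be ordered, since Erg was the higher in 4 of 8. Cilp2 lay above Creb5 in all 8 libraries with no overlap, and Creb5 above Cilp in all 8 with overlapping ranges. The ratio of Cilp2 to its paralogue Cilp was 13.5, 7.02, 10.4 and 10.8 in miR-204 replicates 1 to 4, against 12.2, 4.39, 16.99 and 10.9 in miR-Ctrl replicates 1 to 4. The library with the highest Prg4, miR-Ctrl replicate 2, had the lowest Erg, and the library with the lowest Prg4, miR-Ctrl replicate 3, had the highest Erg.

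Most of the variance of each gene lay between replicate numbers and little between the groups. Replicate number held 97.7% of the variance of Creb5, 91.4% of that of Cilp2, 90.8% of that of Tnc, 84.8% of that of Erg, 73.2% of that of Prg4 and 65.0% of that of Cilp. The median over all tested genes was 73.6% (quartiles 52.5% and 88.1%). The group held 22.8% of the variance of Cilp and 6.44% of that of Cilp2, between 0.109% and 2.28% of that of the other 4, and a median of 10.2% over all genes. The 6 genes did not all vary together. Over the 8 libraries the Pearson r of log2 levels was 0.77 for Cilp2 with Cilp, 0.76 for Cilp2 with Tnc and 0.73 for Cilp2 with Erg. It was -0.90 for Prg4 with Erg, and lay between -0.59 and 0.44 for the other pairs of genes. Replicate 2 libraries averaged 0.288 times the level of the other 6 for Cilp2, 0.526 times for Erg, 0.605 times for Cilp and 0.786 times for Tnc, but 1.25 times for Creb5 and 1.56 times for Prg4. Chondrocyte markers were lowest in the same replicate 2 libraries, and their part in these levels was not tested.

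**Figure D4:**
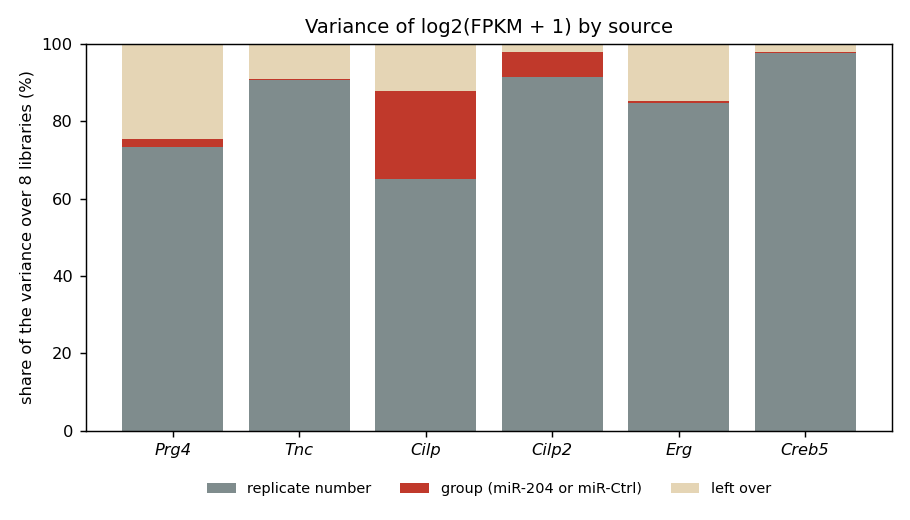
Share of the variance of log2(FPKM + 1) over the 8 libraries that lies between replicate numbers, between miR-204 and miR-Ctrl, and in neither, for each gene (stacked bars, in percent). Replicate number holds between 65.0% and 97.7%, and the group is at most 22.8%, in Cilp.

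Other genes known from the joint surface were examined as a list of 17, of which 15 could be tested. Without the block limma called 0 of 15 in all 8 libraries as deposited, and 1 (Ecrg4) with centred libraries or with quantile normalization. With the block 5 rose and 1 fell, beside 12.4% and 2.83% of all tested genes. The median log2 fold change of the list was 0.11, against 0.064 over all genes. Ecrg4 (1500015O10Rik in the deposited table), a secreted precursor protein, measured 203.7, 225.9, 195.0 and 214.7 FPKM in miR-204 replicates 1 to 4, against 135.8, 171.8, 121.7 and 132.8 FPKM in miR-Ctrl replicates 1 to 4. All 4 miR-204 libraries lay above all 4 miR-Ctrl libraries, the only such case in the list (6.67%, against 5.9% of all genes). Its log2 fold change was 0.58 ± 0.11 (SE), with a limma adjusted p of 0.121, and of 0.0049 with the block. Without the block Ecrg4 was called with centred libraries (adjusted p = 0.0279), with quantile normalization (0.0224), without miR-Ctrl replicate 2 (0.0208) and without both replicate 2 libraries (0.0390).

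Dpt, which encodes the decorin-binding matrix protein dermatopontin and also stands in the list of fibroblast markers, rose with the block (log2 fold change 0.69, limma adjusted p = 0.0103, against 0.651 without it). It measured 17.3, 7.04, 5.00 and 7.10 FPKM in miR-204 replicates 1 to 4, against 7.94, 4.08, 3.37 and 4.35 FPKM in miR-Ctrl replicates 1 to 4. Nt5e, which encodes the AMP-cleaving enzyme CD73, also rose with the block (0.30, 0.0064, against 0.693 without it), and its 3′ UTR holds an 8mer. Has2, which encodes the hyaluronan synthase of the cell surface, was the one that fell (-0.29, limma adjusted p = 0.0108 with the block, 0.577 without it). Has2 averaged 6.28 ± 0.822 FPKM with miR-204 and 7.96 ± 1.26 FPKM with miR-Ctrl (SD, n = 4 each), and its 3′ UTR holds an 8mer. Without both libraries of replicate 1, 2, 3 or 4 the number called higher was 2, 7, 3 and 1, and the number called lower 0, 1, 0 and 0. Over all 11612 tested genes these blocked fits called 89, 2781, 236 and 42 higher, and 83, 522, 149 and 48 lower.

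Prg4 is known to respond to TGF-beta, EGF receptor, FoxO, NFAT, Wnt and YAP/TAZ signalling, and 16 of 17 listed genes of these pathways could be tested. Without the block none was called by limma. With it 4 rose and 2 fell, beside 12.4% and 2.83% of all tested genes, and with centred libraries as well 2 rose and 3 fell, beside 4.99% and 4.32%. Tgfbr2, which encodes the type II receptor that binds TGF-beta, had the largest difference of those that fell. It measured 41.6, 37.5, 41.9 and 52.8 FPKM in miR-204 replicates 1 to 4, against 63.2, 67.4, 77.8 and 89.3 FPKM in miR-Ctrl replicates 1 to 4. Every miR-204 library lay below every miR-Ctrl library, with a log2 fold change of -0.76 ± 0.14 (SE), a limma adjusted p of 0.104, and 0.0027 with the block. Groups did not overlap in 2 of the 16 (12.5%, against 5.9% of all genes), Tgfbr2 and Foxo1. Foxo1 was the higher with miR-204, at 7.33 to 7.73 FPKM against 6.17 to 7.29 FPKM with miR-Ctrl. It was not called with the block (limma adjusted p = 0.0783). Tgfbr2 (chr9:116084293-116175360, - strand) has a 3′ UTR of 6085 nucleotides, near that of Creb5 in length, with 5 matches, and its 8mer is printed for comparison with those of Creb5.
Tgfbr2 8mer, chr9:116087873-116087894, -: tcactactctacatAAAGGGAA

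The ligand gene Tgfb3 rose with the block (log2 fold change 0.31, limma adjusted p = 0.0139), with means of 18.1 ± 2.27 FPKM with miR-204 and 14.3 ± 1.45 FPKM with miR-Ctrl (SD, n = 4 each). The ligand gene Tgfb1 also rose (0.20, adjusted p = 0.0372), and not after centring (0.0939). Wwtr1, which encodes the coactivator TAZ and holds a 7mer-m8 in its 3′ UTR, fell with the block (-0.25, limma adjusted p = 0.0234). It averaged 28.3 ± 2.26 FPKM with miR-204 and 34.1 ± 4.96 FPKM with miR-Ctrl (SD, n = 4 each). Without the block the adjusted p was 0.454 for Tgfb3, 0.594 for Tgfb1 and 0.590 for Wwtr1. Without both libraries of replicate 1, 2, 3 or 4 the blocked fit called 0, 5, 0 and 0 of the 16 higher and 1, 2, 1 and 1 lower. Of all 11612 tested genes it then called 89, 2781, 236 and 42 higher, and 83, 522, 149 and 48 lower.

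**Figure D5:**
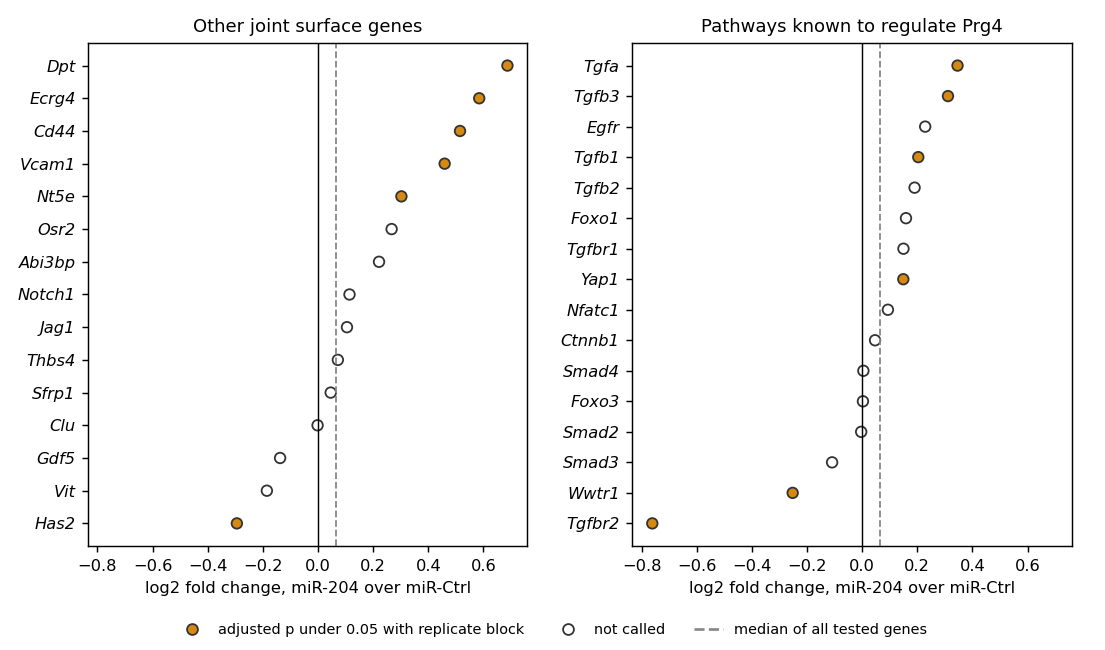
Log2 fold change, miR-204 over miR-Ctrl, of the tested genes known from the joint surface (left) and of pathways known to regulate Prg4 (right). Filled points had an adjusted p under 0.05 with the replicate block and open points did not, and the dashed line is the median of all tested genes (0.064). Tgfbr2 lies lowest at -0.76.

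Families of the transcription factors and partners of tenascin-C were read in the same fits, where the block called 12.4% of all tested genes higher and 2.83% lower. Of 13 CREB and ATF genes beside Creb5, 0 were called by limma with or without the block in all 8 libraries. Atf4 and Creb3l2 had the highest levels, with log2 fold changes of 0.051 and -0.19 (adjusted p = 0.962 and 0.860, and 0.414 and 0.0714 with the block). Without replicate 2 the blocked fit called Creb3l2 lower (-0.23, adjusted p = 0.0264). Of 9 tested ETS genes beside Erg, the repressor gene Elk3, whose 3′ UTR holds a 7mer-m8, rose with the block (0.33, limma adjusted p = 0.0193, against 0.629 without it). With the block and centred libraries together 1 further ETS gene fell, beside 4.32% of all tested genes. Of 7 tested tenascin family members and tenascin-C receptors, Itgav, an integrin subunit that binds matrix, rose with the block (0.32, adjusted p = 0.0075, against 0.656 without it). Tlr4, an innate immune receptor that responds to tenascin-C, did so too (0.27, limma adjusted p = 0.0461, against 0.821 without it), and not after centring (0.0864). Without replicate 1, 2, 3 or 4 the blocked fit called 0, 4, 1 and 0 of the 7 higher, and 0, 2, 0 and 0 of the 9 ETS genes. Its calls over all 11612 tested genes were then 89, 2781, 236 and 42 higher, and 83, 522, 149 and 48 lower.

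Genes listed for the deep zone and hypertrophy, among them cartilage matrix genes not limited to those layers, were set beside the 6. None of 11 tested was called by limma without the block, and with it 2 rose and 2 fell, beside 12.4% and 2.83% of all tested genes. Groups did not overlap in 2 of the 11 (18.2%, against 5.9% of all genes), Alpl and Runx2. Alpl, the alkaline phosphatase of mineralizing cells, measured 3.56, 6.63, 3.68 and 4.48 FPKM in miR-204 replicates 1 to 4, against 6.99, 9.94, 7.12 and 8.11 FPKM in miR-Ctrl replicates 1 to 4. All miR-204 libraries lay below all miR-Ctrl libraries (log2 fold change -0.71 ± 0.18 (SE), limma adjusted p = 0.247, and 0.0035 with the block), and its 3′ UTR holds an 8mer. Runx2, the transcription factor of hypertrophy and bone, fell with the block (-0.29, adjusted p = 0.0152, against 0.290 without it). Its 3′ UTR holds a 7mer-m8, and its means were 4.46 ± 0.286 FPKM with miR-204 and 5.70 ± 0.564 FPKM with miR-Ctrl (SD, n = 4 each). The cartilage matrix genes Ucma and Chad rose with the block (0.34 and 0.54, limma adjusted p = 0.0152 and 0.0132, against 0.685 and 0.788 without it). Of the list genes named as called, Ecrg4, Dpt, Tgfb1, Tgfb3, Itgav, Tlr4, Ucma and Chad held no seed match. An 8mer also stood in Creb1, Atf2, Crem, Crtc2 and Mef2c, which were not called with or without the block in all 8 libraries. No share at like 3′ UTR length was taken for the list genes. Of the 15 genes named from these lists as called with the block, 15 remained called without replicate 2. That setting also called more of all tested genes, 2781 higher and 522 lower, against 1436 and 329 with all 8 libraries. The 15 were picked by their calls in these same data, so their being kept there is no separate support. Ecrg4, Tgfbr2 and Alpl remained called without each of the 4 pairs in turn.

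Some markers of other cells and of the chondrocyte itself moved with the group. The counts below stand beside 12.4% of all tested genes called higher and 2.83% called lower with the block. Without it the shares were 0.0258% and 0.181%. The 7 smooth muscle and pericyte markers summed to between 309.6 and 463.8 FPKM in miR-204 libraries and between 199.8 and 314.4 FPKM in miR-Ctrl libraries, and 4 of the 7 could be tested. Acta2, Cspg4 and Tagln made most of this sum, with means of 139, 87.7 and 73.8 FPKM over the 8 libraries. Myh11, Rgs5 and Notch3 of the same list averaged 0.103, 0.209 and 0.870 FPKM, too low for testing. Acta2, the smooth muscle actin gene, averaged 186.9 ± 29.7 FPKM with miR-204 and 92.0 ± 7.74 FPKM with miR-Ctrl (SD, n = 4 each) and was the one marker called without the block (log2 fold change 1.01, limma adjusted p = 0.0242). Tagln and Mcam also rose with the block (0.55 and 0.82, adjusted p = 0.0049 and 0.0024), and Cspg4 did not pass (-0.0067, 0.952). Of 3 tested macrophage markers Cd68 rose with the block (1.01, limma adjusted p = 0.0100, against 0.247 without it), with 2.76 to 4.75 FPKM in miR-204 libraries and 0.545 to 2.22 FPKM in miR-Ctrl libraries. The leukocyte marker Ptprc stayed at or under 0.0309 FPKM in each of the 8 libraries. Of 8 fibroblast markers Thy1 and Dpt rose with the block, and of 5 tendon markers Tnmd rose (adjusted p = 0.0330 for Thy1 and 0.0125 for Tnmd). Of 10 chondrocyte markers Hapln1, the link protein of aggrecan aggregates, and Comp, a matrix protein, fell with the block (-1.04 and -0.17, limma adjusted p = 0.0014 and 0.0401). The part of these changes in the differences above was not tested.

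The genes whose log2 levels were most like those of each member over the 8 libraries were named as a description, from 11612 candidates, with libraries of equal number sharing most of their variance. For Prg4 they included Manba and Clip3 (Pearson r = 0.985 and 0.980), for Tnc they were Cdr2l, Cox4i2 and Zfp142 (0.980, 0.957 and 0.953), and for Cilp they were Avpi1, Cdc25c and Scd1 (0.981, 0.978 and 0.964). For Cilp2 they were Mertk, Map2 and Gng13 (0.987, 0.985 and 0.983), for Erg Efcab1, Tgds and Slc35f3 (0.981, 0.978 and 0.970), and for Creb5 Ttbk2, Kmt2c and Arid2 (0.978, 0.977 and 0.974). Candidates had a mean of at least 1 FPKM, so Cilp and Creb5 could not appear in these sets. Of Prg4, Tnc, Cilp2 and Erg, none was in the set of another member. After the mean of each replicate number was taken away, the sets were others. The most like were then Slc6a9, Zbtb7c and Cdh13 for Prg4, Rnf219, Fv1 and Cog6 for Tnc, Zdhhc1, Desi1 and Dmpk for Cilp, Ids, Efr3a and Scrn3 for Cilp2, Vti1a, Fcho2 and Chd1 for Erg, and Ngdn, Ift172 and Dcun1d5 for Creb5. With 4 differences left per gene, values over 0.99 are reached by some of many candidates.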

How the data were processed

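Polyadenylated RNA was sequenced from 4 libraries per group. The authors deposited a table of FPKM, 1 value for each gene in each library. Cufflinks 2.2.1, TopHat (version unknown from these sources) and mm10 are named in the submitters' processing notes. Of 158 missing or date-like symbols, 156 were restored by gene ID. The 11612 genes averaging 1 FPKM or more across the 8 libraries were tested on log2(FPKM + 1) with limma 3.58.1 in R 4.3.3, with a trended prior, two-sided, and Benjamini-Hochberg adjustment at 0.05 over all of them. Members under the filter were read from the fit of all 18849 genes with any FPKM above 0. Single values were compared with an exact permutation test over 70 assignments, whose smallest p is 0.0286. FPKM keep no read totals, so no count test was used, and relative depth came from steps between low values.

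The main fit had no block. Equal replicate numbers paired the samples in the data, not by the labels: deviations from the group means correlated at r = 0.44, 0.82, 0.76 and 0.62 across genes for numbers 1 to 4, and 8 of 8 libraries matched their own number best. Alternatives were pseudocount, filter, prior, centred libraries, quantile normalization, the block, and leaving out libraries.

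Seed matches were searched in the longest 3′ UTR per gene of GENCODE M21, on the assembly of mm10. Transcript models behind the FPKM may differ. The members and lists were chosen with earlier results of these data known. Named from each list were up to 4 genes called in either fit, by the smallest unblocked p, or else the 2 of highest mean, and for each member the 3 most like genes. One gene that this rule names is not reported here. The cell type markers named were chosen after their values were seen. The fits were tested on simulated data.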

Additional observations from a re-analysis of the deposited data

Results flagged for a closer look

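The FPKM of Cilp2 in miR-Ctrl replicate 2 (1.42) stood apart from the other 3 miR-Ctrl libraries (5.57, 6.04 and 5.81). Its gap to the nearest of them was 0.898 of the range of the group, above the 95% critical value of Dixon's test for 4 samples. In miR-204 the replicate 2 library was lowest as well (2.35 FPKM), with a gap of 0.616 of the range. Of 12 groups of 4 looked at, this was 1, and chance flags about 1 in 20. Replicate 2 libraries had the lowest relative depth and the lowest chondrocyte marker sums, and the part of these in the value was not tested.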

How the results depend on the processing

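Counts over all genes depended on the setting. Against 3 higher and 21 lower genes, limma called 0 and 9 with no filter (1123 and 357 at an unadjusted p under 0.05), 8 and 55 with centred libraries, and 7 and 66 with quantile normalization. With the replicate block it called 1436 and 329, with the block and centred libraries 579 and 502, with the block and quantile normalization 555 and 536, and with the block and a pseudocount of 0.1 1434 and 332. Leaving out single libraries gave 0 to 4 higher and 1 to 16 lower, leaving out pairs gave 0 to 2 and 0 to 16, and leaving out pairs with the block gave 42 to 2781 and 48 to 522 (89 and 83 without replicate 1, 236 and 149 without replicate 3). Members called higher numbered 0, or 1 with the block (Cilp2, log2 fold change 0.32), and 0 to 1 with the block without a pair. No setting called a member lower. Erg turned to -0.0050 with centred libraries and to -0.016 with quantile normalization, with and without the block, and Tnc to -0.052 and -0.050. Leaving out libraries gave log2 fold changes of -0.22 to 0.45 for Prg4, -0.051 to 0.65 for Cilp2 (negative without miR-Ctrl replicate 2), -0.21 to 0.33 for Erg, -0.068 to 0.044 for Creb5, and -0.080 to 0.10 for Tnc. Without a pair the turned values, with the block, were -0.12 for Prg4 (without replicate 3), -0.10 for Erg (without replicate 2), and -0.0070 and -0.034 for Tnc (without replicates 2 and 4), and Cilp2, still called, was 0.42 without replicate 3. Cilp kept its direction in all 26 settings. Atf4 turned to -0.013 with centred libraries, with and without the block, and lay between -0.046 and 0.13 without single libraries. The cause of these turns was not tested. The 2 genes with a seed match stayed 2 in either alternative. No member was called without the block, so there was no call for the block to end. It added Cilp2 alone among the 4 tested.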
